A study of Mus musculus with 12 samples.

Results

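The genes described here are the Notch receptors Notch1, Notch2 and Notch3, the ligands Jag1, Jag2 and Dll1, and the target genes Hes1, Hey1, Hey2 and Heyl. They were taken by gene name from a table of 29428 genes, in which each of the 10 names occurred on 1 row, and they were followed across 12 RNA-seq libraries of mouse striatal cells. The STHdhQ7 and STHdhQ111 lines are immortalized cells from the embryonic striatum of knock-in mice whose huntingtin gene carries either a short or a long glutamine repeat. The libraries formed 4 groups of 3, which were nontreated STHdhQ7/Q7 cells (Q7-C, labelled as the normal genotype), nontreated STHdhQ111/Q111 cells (Q111-C), and the same lines after 24 h of exposure to interferon gamma (IFNγ, at 100 ng/mL) together with lipopolysaccharide (LPS, at 5 μg/mL), named Q7-T and Q111-T. All groups were grown at 33°C and used within 20 passages of purchase. Each genotype is represented by 1 purchased line, so that repeat length cannot be told apart from any other difference between these lines. The study calls its replicates biological, but neither it nor the labels say that they came from separate cultures. If they did not, p-values measure only the spread between these libraries, which may be technical.

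Notch receptors sit in the cell membrane and are activated by Jagged or Delta-like ligands on a neighbouring cell. Ligand binding exposes the receptor to cleavage by ADAM proteases and then by γ-secretase, which frees the intracellular domain to enter the nucleus, join the DNA-binding protein RBPJ and its Mastermind coactivator, and switch on Hes and Hey genes. These encode transcriptional repressors that hold neural progenitors of the embryonic striatum and other brain regions back from differentiation, while Notch3 and Heyl are best known from the mural cells that wrap blood vessels.

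The 10 genes lay on 7 chromosomes of the mouse genome GRCm38. Notch1 (ENSMUSG00000026923) was at chr2:26457903-26516663 on the minus strand, Notch2 (ENSMUSG00000027878) at chr3:98013527-98150361 on the plus strand and Notch3 (ENSMUSG00000038146) at chr17:32120820-32166852 on the minus strand. The ligand genes were all on the minus strand, Jag1 (ENSMUSG00000027276) at chr2:137081456-137116644, Jag2 (ENSMUSG00000002799) at chr12:112907819-112929776 and Dll1 (ENSMUSG00000014773) at chr17:15367354-15376872. Among the target genes, Hes1 (ENSMUSG00000022528) was at chr16:30064384-30067796 and Heyl (ENSMUSG00000032744) at chr4:123233556-123249875 on the plus strand, and Hey1 (ENSMUSG00000040289) at chr3:8663359-8667256 and Hey2 (ENSMUSG00000019789) at chr10:30832359-30842801 on the minus strand. The longest annotated transcripts of the receptors had 8016 to 10500 bases, those of the ligands 3581 to 5612 and those of the targets 1468 to 4537. Notch1 and Notch3 overlap noncoding genes on the opposite strand (0610009E02Rik and Gm13568, and Gm17276), and whether the counting used the strand is not given in the sources used here. No library held more than 61 estimated counts for 0610009E02Rik or 7 for Gm17276, against at least 1915 for Notch1 and 91 for Notch3. Dll1 overlaps the noncoding gene A930024N18Rik on the opposite strand, whose level was not analysed here.

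Promoters are shown for the members whose RNA moved together after treatment of STHdhQ111 cells (Notch1, Notch3, Jag2 and Dll1) and for the remaining members whose window held 1 of the motifs given here (Notch2 and Hey2). They are RefSeq windows of GRCm38.p6 that run from 250 bases before to 50 bases after a transcription start and are written in the direction of the gene. RefSeq windows matched 7 of the 10 members (Jag1 too), with 2 starts for Dll1, and Hes1, Hey1 and Heyl were not matched. Matches on both strands are given in capitals for 2 motifs, which are TGGGAA (the core of the RBPJ site) and the NF-kB consensus.
Notch1 (chr2:26503773-26504072, minus strand): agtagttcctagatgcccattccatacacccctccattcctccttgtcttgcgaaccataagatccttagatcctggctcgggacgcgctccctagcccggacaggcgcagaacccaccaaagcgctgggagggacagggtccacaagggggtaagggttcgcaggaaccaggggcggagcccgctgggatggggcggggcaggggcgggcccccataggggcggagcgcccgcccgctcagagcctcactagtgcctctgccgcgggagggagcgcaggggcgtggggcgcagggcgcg
Notch3 (chr17:32166841-32167140, minus strand): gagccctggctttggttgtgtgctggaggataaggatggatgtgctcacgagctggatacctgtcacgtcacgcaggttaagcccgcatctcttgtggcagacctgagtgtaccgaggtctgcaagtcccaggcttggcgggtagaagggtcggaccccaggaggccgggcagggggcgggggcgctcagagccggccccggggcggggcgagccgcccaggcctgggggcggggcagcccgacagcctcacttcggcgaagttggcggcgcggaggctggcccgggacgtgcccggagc
Jag2 (chr12:112929446-112929745, minus strand): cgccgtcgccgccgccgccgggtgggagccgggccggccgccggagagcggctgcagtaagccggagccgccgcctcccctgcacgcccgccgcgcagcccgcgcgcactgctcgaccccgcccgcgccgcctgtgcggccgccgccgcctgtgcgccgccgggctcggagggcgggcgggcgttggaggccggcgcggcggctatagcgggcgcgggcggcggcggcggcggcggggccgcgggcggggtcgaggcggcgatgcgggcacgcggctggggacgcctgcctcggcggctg
Dll1 (chr17:15376883-15377182, minus strand): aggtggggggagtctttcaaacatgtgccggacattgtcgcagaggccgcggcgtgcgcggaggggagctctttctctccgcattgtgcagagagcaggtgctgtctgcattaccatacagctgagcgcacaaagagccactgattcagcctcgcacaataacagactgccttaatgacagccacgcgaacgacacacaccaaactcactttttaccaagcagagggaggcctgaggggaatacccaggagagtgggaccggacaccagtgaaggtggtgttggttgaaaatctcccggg
Notch2 (chr3:98013288-98013587, plus strand): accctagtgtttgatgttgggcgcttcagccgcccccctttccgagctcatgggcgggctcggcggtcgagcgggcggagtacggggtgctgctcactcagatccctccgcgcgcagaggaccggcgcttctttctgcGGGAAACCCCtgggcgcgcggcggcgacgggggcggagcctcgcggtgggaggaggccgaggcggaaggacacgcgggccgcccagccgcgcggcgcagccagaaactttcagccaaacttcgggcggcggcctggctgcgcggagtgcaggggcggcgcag
Hey2 (chr10:30842734-30843033, minus strand): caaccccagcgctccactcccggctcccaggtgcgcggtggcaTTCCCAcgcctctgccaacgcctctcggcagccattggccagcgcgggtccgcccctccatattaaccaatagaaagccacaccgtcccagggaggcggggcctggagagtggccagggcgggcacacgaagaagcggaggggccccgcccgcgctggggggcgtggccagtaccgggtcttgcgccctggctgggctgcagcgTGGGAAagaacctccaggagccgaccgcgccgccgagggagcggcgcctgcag
The capitals mark an NF-kB consensus at position -112 of Notch2, which reads as a match on both strands, and TGGGAA at positions -207 (opposite strand) and -3 of Hey2, with positions counted from the transcription start. The same motifs were in 4.51% (NF-kB) and 25.6% (TGGGAA) of all 32851 RefSeq windows of 300 bases. The windows of Notch1, Notch3, Jag1, Jag2 and Dll1 held neither of these motifs. The Notch1 window lies inside the gene as the table spans it, and the outer Dll1 window printed here lies wholly outside the span.

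The estimated counts of the libraries summed to between 57505990 and 96417834, and 16127 genes had at least 0.5 TPM (a level scaled for transcript length and for the library total) in at least 3 libraries. All 10 members passed this filter, Hes1, Notch1 and Notch2 in 12 libraries and Dll1 and Heyl in 6. The 6 of Heyl were all STHdhQ111 libraries, so that it was tested only through the line in which it was high. A gene was called when it changed at least 2-fold and the quasi-likelihood test of edgeR, run over all these genes and adjusted by Benjamini-Hochberg, gave an adjusted p under 0.05. SE stands for standard error and is on the log2 scale. The transcript length separated 3 libraries from the rest. Over 1082 genes with transcripts of at least 6000 bases, the median deviation from the other libraries of the same group was -1.0 in Q7-C replicate 1, -1.31 in Q7-T replicate 2 and -0.63 in Q111-T replicate 2 on the log2(TPM + 0.5) scale. The other 9 libraries lay between -0.15 and 0.74, and over 2640 genes with transcripts under 2000 bases all 12 libraries lay between -0.15 and 0.18. The receptor genes moved with this deviation within every group. Notch2 deviated by -1.07, -2.08 and -0.86 in the libraries named, Notch1 by -0.84, -1.58 and -0.76, and Notch3 by -0.45, -1.44 and -0.75. The fall was not confined to the receptors. Jag1 deviated by -0.90, -0.87 and -0.88 in the same libraries. Hey1 and Hey2, with shorter transcripts, deviated by -1.12 and -0.77 in Q7-T replicate 2, but by -0.11 and 0.12 in Q111-T replicate 2. The values below were also computed with the trend on transcript length removed and without these 3 libraries.

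**Figure D1:**
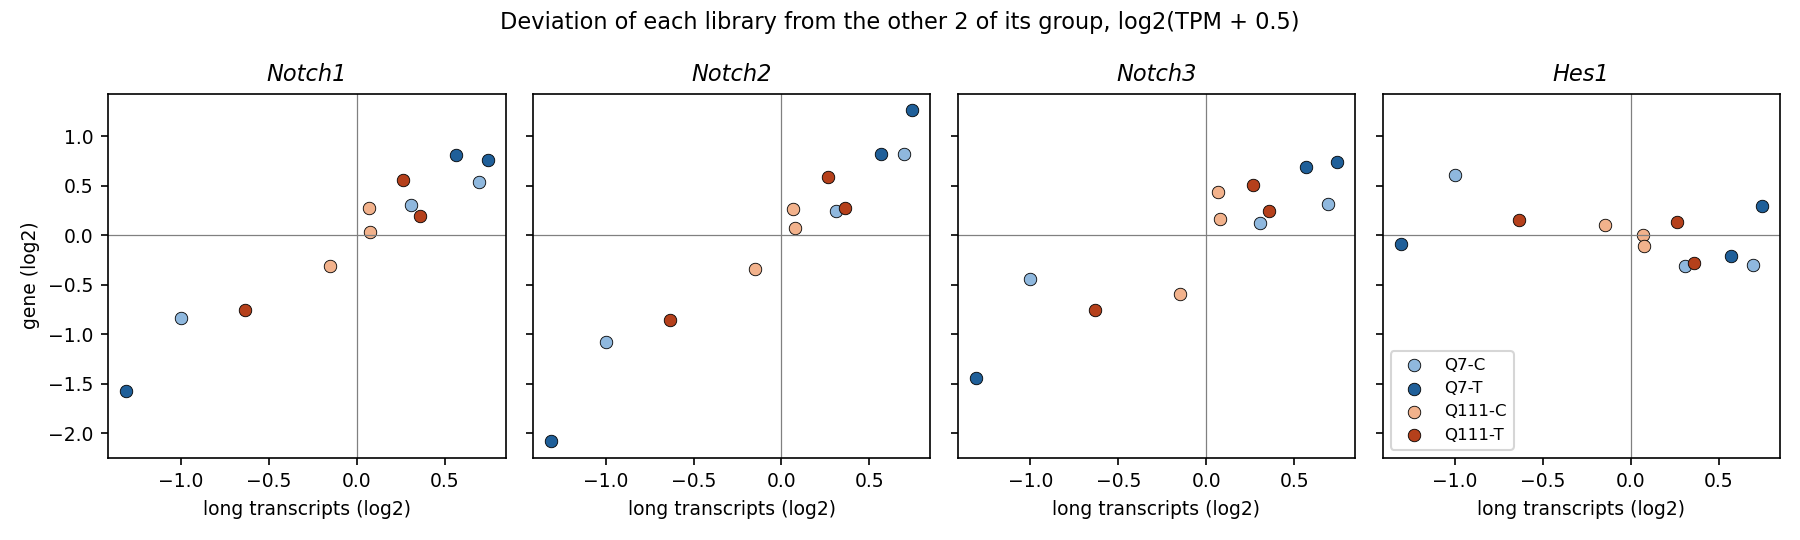
Each point is 1 library. The horizontal axis gives the median deviation of the genes with transcripts of at least 6000 bases and the vertical axis the deviation of the named gene, each from the other 2 libraries of its group on the log2(TPM + 0.5) scale. Notch1, Notch2 and Notch3 fell with the long transcripts, down to -2.08 for Notch2 in Q7-T replicate 2, whereas Hes1, with a transcript of 1468 bases, did not.

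The cells are labelled as neuronal, but of 10 neuronal marker genes 7 had a row and 3 passed the filter. Snap25 and Syt1 had at most 0.025 TPM in any library, Bcl11b at most 0.0407, and Gad1 was listed at 0 in every library outside Q111-T. The summed TPM of the list was 22.6 to 27.7 in Q7-C, 58.7 to 86.3 in Q7-T, 10 to 12 in Q111-C and 29.7 to 33.6 in Q111-T. In all groups but Q111-C most of it came from Tubb3, a tubulin of neurons (means of 16.9, 74.6, 3.91 and 24.7 TPM in the same order), which was higher after treatment in both lines. Map2 went the other way, with means of 7.93, 2.13, 5.90 and 5.61 TPM, as did Ppp1r1b, with 0.30, 0.10, 1.1 and 0.46 TPM. Mesenchymal markers were abundant, with summed TPM of 2592 to 2972 in Q7-C, 1786 to 2100 in Q7-T, 3475 to 3582 in Q111-C and 1508 to 1612 in Q111-T. The lower sums after treatment were those of Vim, Col1a1 and Col1a2, whereas Dcn was higher after treatment in both lines (means of 2.03 and 12.8 TPM in STHdhQ7 and 14.9 and 55.1 TPM in STHdhQ111 cells) and Pdgfra had means of 0.706, 0.847, 20.3 and 9.88 TPM in the order of the sums. The 5 mural markers summed to 1641 to 1855 TPM in Q7-C, 1506 to 1691 in Q7-T, 106 to 142 in Q111-C and 45.6 to 61.6 in Q111-T. This difference between the lines was that of Acta2 (means of 1670 TPM in Q7-C and 43.7 in Q111-C). Pdgfrb lay the other way (39.2 and 70.0 TPM), Cspg4 was at 13.2 and 11.4 TPM, Rgs5 had at most 2.09 TPM in any library and Myh11 at most 0.272. Neural progenitor markers (6 genes, 5 past the filter) summed to 84.5 to 135 TPM in Q7-C and 38.0 to 109 in Q7-T, against 18 to 21.8 in Q111-C and 15.9 to 19.1 in Q111-T. Nes, Sox2 and Pax6 followed the sum (means of 54.6, 42.4 and 6.97 TPM in Q7-C, against 7.31, 4.19 and 0.117 TPM in Q111-C). Fabp7 was higher in STHdhQ111 cells, with means of 0.57 and 2.17 TPM before and 0.38 and 1.25 TPM after treatment (STHdhQ7 value first). Dlx2 was lower in nontreated STHdhQ111 cells (means of 7.85 and 5.76 TPM), but the treated lines overlapped (means of 3.86 and 4.77 TPM). Astrocyte markers summed to 1.04 to 1.93 TPM in Q7-C, 1.29 to 1.77 in Q7-T, 8.97 to 11 in Q111-C and 3.94 to 4.94 in Q111-T, with Slc1a3 as the largest part. Aldh1l1 went the other way, with means of 0.364 TPM in Q7-C, 0.0384 in Q111-C and 1.32 in Q111-T, and Gfap had means of 0.059 TPM in Q111-C and 0.246 in Q111-T. Endothelial markers (5 genes, 0 past the filter) summed to 0.224 to 0.361 TPM in Q7-C, 0.397 to 1.68 in Q7-T, 0.0686 to 0.389 in Q111-C and 0.882 to 1.68 in Q111-T. The sums were higher after treatment in both lines, but single genes overlapped. Among them were Pecam1 in STHdhQ111 (0.0176 to 0.213 and 0.0377 to 0.282 TPM) and Tek in STHdhQ7 cells (0.131 to 0.264 and 0.211 to 0.336 TPM). Macrophage or microglia markers summed to at most 0.479 TPM. The part of these markers in the differences between lines and after treatment was not tested, and in bulk RNA fewer cells of a type and less RNA per cell cannot be told apart.

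In nontreated cells, the lines differed in 3 target genes and 1 ligand. Hey1 was 18-fold lower and Hes1 2.42-fold lower in STHdhQ111 than in STHdhQ7 cells, the ligand Jag2 was 3.24-fold lower, and Heyl was above the counting floor given below in STHdhQ111 cells only. The receptors Notch2 and Notch3 and the ligand Dll1 were not called. In Q111-C vs. Q7-C, 4 of 10 members were called, 1 higher and 3 lower, against 15.2% of all genes tested (7.62% higher and 7.61% lower). The 1 higher was Heyl, which passed the filter only through STHdhQ111 libraries. The median log2 fold change of the members was -0.42 (with Heyl at its fitted value or at the lower bound given below, and -0.89 without Heyl), and that of all genes tested was -0.02.

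Hey1, a repressor downstream of Notch, had 3.77, 4.61 and 5.81 TPM in the Q7-C libraries and 0.257, 0.314 and 0.382 TPM in the Q111-C libraries (values of a group are given from the lowest to the highest throughout). All STHdhQ111 values lay far below all STHdhQ7 values. The log2 fold change was -4.17 (SE 0.266, adjusted p = 9.32e-07 by quasi-likelihood in edgeR), and it stayed called under each of 26 alternatives. For single values, the two-sided exact permutation test of 3 libraries against 3 cannot go below p = 0.1, which is what it gave for every pair of groups described as not overlapping.

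Heyl, the Hey gene typical of vascular smooth muscle, had 1.18, 1.34 and 1.44 TPM in Q111-C. In the 3 Q7-C libraries it had 0, 4 and 8 estimated counts. Low counts favoured multiples of 4, and a floor of 12 estimated counts per library (about 3 read pairs) was set, which no Q7-C library passed. Against this floor, Heyl in Q111-C was at least 17.4-fold higher than in Q7-C. The adjusted p of 0.00338 from the same edgeR test belongs to the fitted log2 fold change of 5.65 (SE 1.13) and not to this bound. Hey2, which encodes a further repressor of the family, had 0.845, 1.16 and 1.5 TPM in Q7-C and 1.80, 1.87 and 1.92 TPM in Q111-C. The groups did not overlap in TPM, yet the log2 fold change on TMM-scaled counts was 0.38 (SE 0.384) with an adjusted p of 0.552 in edgeR's test. On the log2(TPM + 0.5) scale the median of all genes tested was itself shifted, by 0.27 for Q111-C vs. Q7-C and 0.34 for Q111-T vs. Q7-T, and by -0.16 and -0.10 on treatment of STHdhQ7 and STHdhQ111 cells, so that TPM and TMM-scaled differences are not on the same footing.

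Hes1, which had the highest mean TPM of the 4 Hes and Hey members in every group, had 8.23, 8.25 and 12.8 TPM in Q7-C and 4.98, 5.26 and 5.53 TPM in Q111-C. The groups did not overlap, and Q7-C replicate 1 was the high library. The log2 fold change was -1.27 (SE 0.326, adjusted p = 0.0145 by quasi-likelihood in edgeR). This call was lost in 7 of 26 alternatives, among them those without Q7-C replicate 1 (-0.81, adjusted p = 0.0534), Q111-C replicate 2 (-1.22, adjusted p = 0.0612) and Q111-C replicate 3 (-1.20, adjusted p = 0.0653), while it was -1.11 with the trend on transcript length removed.

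Jag2, a Jagged ligand, had 0.686, 0.777 and 0.894 TPM in Q7-C and 0.211, 0.308 and 0.383 TPM in Q111-C, again without overlap. Its log2 fold change was -1.69 (SE 0.279, adjusted p = 0.000939 by quasi-likelihood in edgeR). It was no longer called in 3 of 26 alternatives, at -0.69 with limma on log2(TPM + 0.5), -0.46 on log2(TPM + 1) (adjusted p = 0.0655) and -0.93 on quantile-normalized TPM. Jag1, the other Jagged ligand, had 1.72, 3.12 and 4.25 TPM in Q7-C and 1.34, 1.75 and 2.12 TPM in Q111-C, and the groups overlapped. Its log2 fold change of -1.07 (SE 0.382) had an adjusted p of 0.0668 in the edgeR test and passed the threshold in 6 of 26 alternatives, including the trend on transcript length removed (-1.13, adjusted p = 0.00939). Notch1 had 4.91, 8.66 and 9.71 TPM in Q7-C and 4.30, 5.13 and 5.81 TPM in Q111-C. At -0.89 (SE 0.267) its log2 fold change had an adjusted p of 0.0326 in the edgeR test but was under 2-fold. Without Q7-C replicate 1 it was -1.02 (adjusted p = 0.0294) and past both thresholds. Without the 3 libraries low on long transcripts, Notch1 (-1.02, adjusted p = 8.27e-05) and Jag1 (-1.25, adjusted p = 0.00426) were called beside Jag2, Hey1 and Heyl, and Hes1 was not (-0.81).

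IFNγ/LPS treatment of STHdhQ111 cells raised receptors, ligands and 1 target gene. Jag2 rose 14-fold, Dll1 8-fold, Notch3 4.85-fold, Hey1 3.83-fold and Notch1 3.52-fold, and no fall was called. These 5 of 10 members were called in Q111-T vs. Q111-C, against 11.2% of all genes tested (8.28% higher). Notch2, Jag1, Hes1, Hey2 and Heyl were not called. The median log2 fold change was 1.31 over the members and -0.01 over all genes tested. In TPM, 7 of 10 members did not overlap between these groups, all higher after treatment, against 49.6% of all genes tested in both directions and 19.8% higher.

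**Figure D2:**
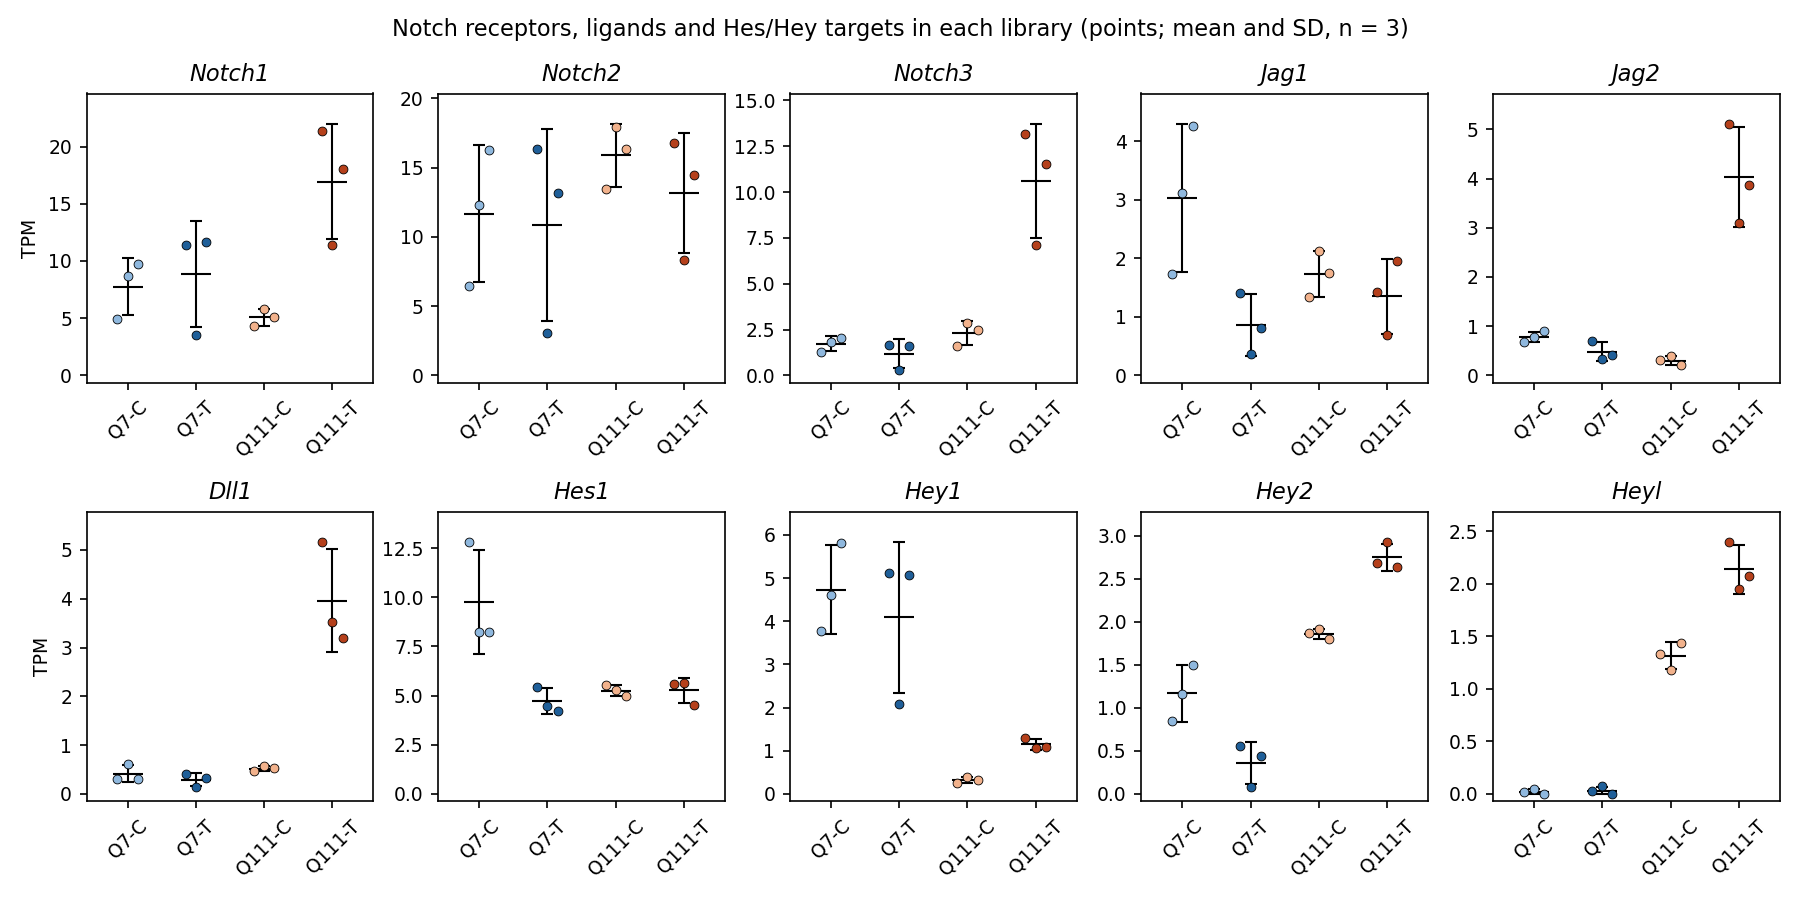
TPM of the 10 genes in each library, with the mean and SD of the 3 libraries of each group as bars and a separate vertical axis for each gene. Jag2, Dll1 and Notch3 stood out in Q111-T (means of 4.03, 3.96 and 10.6 TPM), Hey1 was lowest in Q111-C (mean 0.317 TPM), and Heyl lay near 0 in both STHdhQ7 groups.

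Among the receptors, Notch3 had 1.60, 2.47 and 2.87 TPM in Q111-C and 7.11, 11.5 and 13.2 TPM in Q111-T. The lowest treated library, replicate 2, still lay well above all nontreated ones. The log2 fold change was 2.28 (SE 0.4, adjusted p = 0.00187 by quasi-likelihood in edgeR), and 2.27 with the trend on transcript length removed. Notch1, the broadly expressed receptor of neural progenitors, had 11.4, 18 and 21.4 TPM in Q111-T, against 4.30 to 5.81 TPM in Q111-C. All treated libraries were higher, with a log2 fold change of 1.82 (SE 0.274, adjusted p = 0.000657 in the edgeR test). Notch2 had 13.4, 16.3 and 17.9 TPM in Q111-C and 8.36, 14.4 and 16.8 TPM in Q111-T. These ranges overlapped, and the log2 fold change was -0.19 (SE 0.365).

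The ligands Jag2 and Dll1 were among the 3 lowest members in Q111-C and stood above Hey2 in Q111-T. Jag2 had 3.09, 3.87 and 5.11 TPM in Q111-T, against 0.211 to 0.383 TPM in Q111-C, and its log2 fold change was 3.81 (SE 0.3, adjusted p = 4.69e-06 by quasi-likelihood in edgeR). Dll1, a Delta-like ligand that acts during neurogenesis, had 0.461, 0.533 and 0.562 TPM in Q111-C and 3.20, 3.53 and 5.16 TPM in Q111-T. The values did not overlap for either gene. For Dll1 the log2 fold change was 3.00 (SE 0.342, adjusted p = 8.36e-05 in the edgeR test). Jag1 did not follow the other ligands, with 1.34 to 2.12 TPM before and 0.684, 1.42 and 1.96 TPM after treatment, which overlapped (log2 fold change -0.29, SE 0.379, adjusted p = 0.695 in the edgeR test).

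Of the target genes, Hey1 had 1.07, 1.09 and 1.29 TPM in Q111-T, above all Q111-C libraries (0.257 to 0.382 TPM) and below all Q7-T libraries. Its log2 fold change was 1.94 (SE 0.247, adjusted p = 0.000193 by quasi-likelihood in edgeR). Hes1 had 4.53, 5.59 and 5.66 TPM in Q111-T and overlapped with Q111-C, with a log2 fold change of 0.11 (SE 0.322). Hey2 and Heyl were higher in all Q111-T libraries, at 2.64, 2.69 and 2.93 TPM for Hey2 and 1.95, 2.07 and 2.40 TPM for Heyl, but neither passed the edgeR test, with log2 fold changes of 0.67 (adjusted p = 0.283) and 0.80 (adjusted p = 0.623). The calls of Notch1, Notch3, Jag2 and Dll1 in Q111-T vs. Q111-C held under all 26 alternatives and that of Hey1 under 24. Hey1 dropped out at 0.71 with limma on log2(TPM + 1) and at 0.92 with limma on quantile-normalized TPM.

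The same treatment of STHdhQ7 cells gave 2 calls, both downward, of 10 members, against 4.04% of all genes tested (1.11% lower). Jag1 fell 3.20-fold and Hey2 fell 3.09-fold, and neither call was stable. The median log2 fold change of the members was -0.43, or -0.48 over the 9 members other than Heyl, which was at or near the floor in both groups, and that of all genes tested was 0.00. In TPM, 3 members did not overlap between Q7-T and Q7-C, all lower after treatment, against 14.4% of all genes tested in both directions and 8.9% lower.

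Jag1 had 0.366, 0.808 and 1.41 TPM in Q7-T, and all of these lay below the Q7-C libraries (1.72 to 4.25 TPM). The log2 fold change was -1.68 (SE 0.389, adjusted p = 0.0271 by quasi-likelihood in edgeR). The call was lost in 9 of 26 alternatives. It was lost without Q7-C replicate 2 (adjusted p = 0.0752), Q7-C replicate 3 (0.111), Q7-T replicate 2 (0.0656) or Q7-T replicate 3 (0.094), with log2 fold changes between -1.70 and -1.44, and kept with the trend on transcript length removed (-1.54, adjusted p = 0.00491). Hey2 had 0.0838, 0.434 and 0.562 TPM in Q7-T, against 0.845 to 1.5 TPM in Q7-C. Replicate 2, with 15 estimated counts, was the lowest. Its log2 fold change of -1.63 (SE 0.398, adjusted p = 0.0363 in edgeR's test) was lost in 17 of 26 alternatives. Of these, 10 left out 1 library, which was any library except Q7-T replicates 1 and 2, and gave log2 fold changes between -1.76 and -1.51 with adjusted p between 0.0518 and 0.118.

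Hes1 had 4.21, 4.48 and 5.46 TPM in Q7-T and did not overlap with Q7-C (8.23 to 12.8 TPM), but its log2 fold change of -0.89 (SE 0.323) had an adjusted p of 0.181 in the edgeR test. Hey1 kept the higher level of the STHdhQ7 line, with 2.07, 5.08 and 5.11 TPM, and a log2 fold change of -0.09 (SE 0.23). Notch1 had 3.54, 11.4 and 11.7 TPM, Notch2 3.09, 13.2 and 16.3 TPM and Notch3 0.291, 1.62 and 1.67 TPM in Q7-T. The lowest value was replicate 2 for each receptor, and all 3 overlapped with Q7-C. Jag2 (0.328, 0.414 and 0.693 TPM) and Dll1 (0.147, 0.321 and 0.399 TPM) also overlapped with Q7-C, where Dll1 had 0.306, 0.315 and 0.608 TPM.

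**Figure D3:**
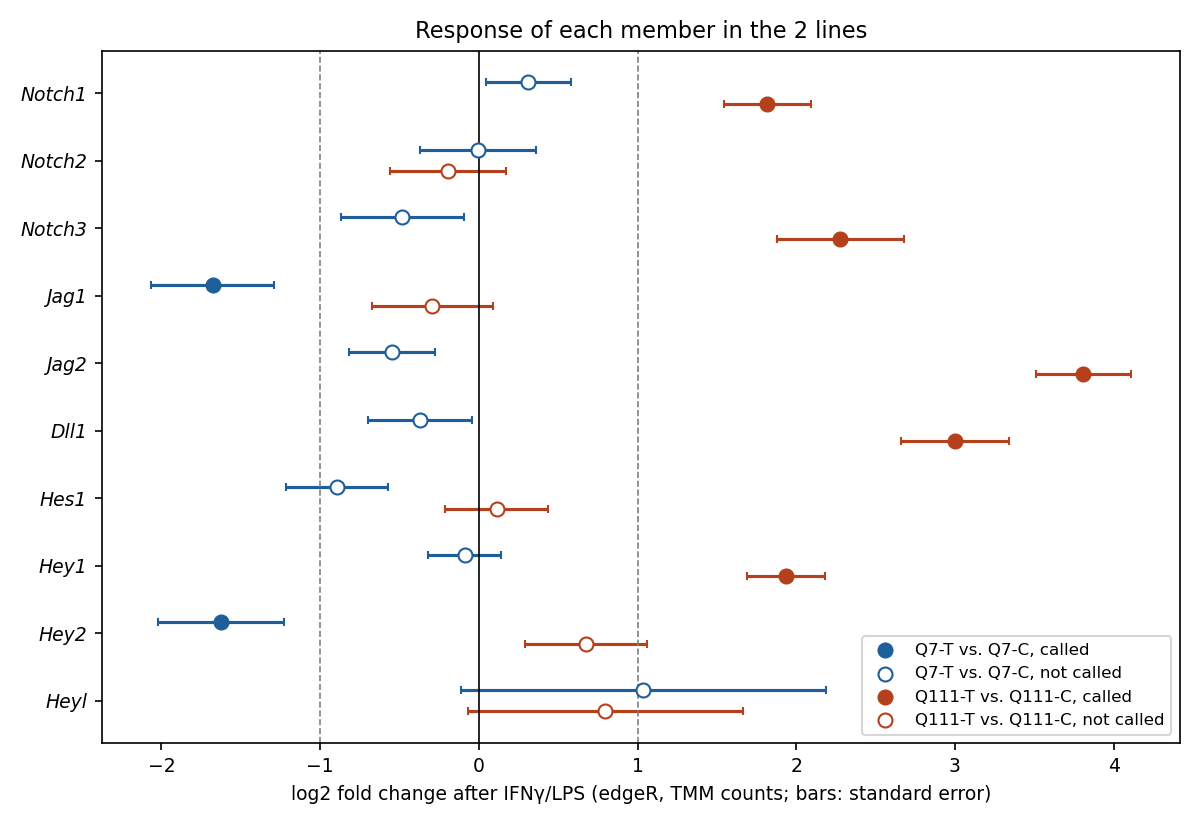
Log2 fold change of each gene after IFNγ/LPS in STHdhQ7 (blue) and STHdhQ111 cells (red) from edgeR, with standard errors as bars, filled symbols for called genes and dashed lines at 2-fold. Jag2 and Dll1 moved to 3.81 and 3.00 in STHdhQ111 cells against -0.55 and -0.37 in STHdhQ7 cells, whereas Notch2 stayed near 0 in both.

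The difference between the responses was tested as the interaction of line and treatment. It was called for 6 of 10 members, all higher in STHdhQ111 cells, against 4.71% of all genes tested (3.52% higher). The difference in log2 fold change was 4.36 for Jag2 (SE 0.398, adjusted p = 0.000172 by quasi-likelihood in edgeR) and 3.37 for Dll1 (SE 0.468, adjusted p = 0.00193). Both held under all 25 alternatives. Notch3 had a difference of 2.76 (SE 0.552, adjusted p = 0.0131) and Hey1 of 2.03 (SE 0.336, adjusted p = 0.00519), which were lost in 1 and 3 alternatives, all of them limma on log2(TPM) scales. The Hey2 difference of 2.30 (SE 0.552, adjusted p = 0.0327) joined a fall in STHdhQ7 cells to a value of 0.67 that was not called in STHdhQ111 cells.

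The interaction calls of Notch1 and Hey2 were fragile. Notch1 differed by 1.5 (SE 0.377, adjusted p = 0.0397 in edgeR's test), and this was lost in 12 of 25 alternatives. Leaving out Q7-C replicate 2 or 3, any Q111-C library, or Q111-T replicate 1 or 3 gave 1.33 to 1.58 with adjusted p between 0.0798 and 0.121, while the value was 1.30 (adjusted p = 0.002) with the trend on transcript length removed and 1.57 (adjusted p = 0.000355) without the 3 libraries low on long transcripts. The Hey2 difference was also lost in 12 of 25 alternatives, among them those without Q7-C replicate 2 or 3, Q7-T replicate 3, or any Q111-C or Q111-T library (2.14 to 2.43, adjusted p between 0.0516 and 0.0917). For Jag1 and Hes1, the differences of 1.39 (adjusted p = 0.176) and 1.01 (adjusted p = 0.248) were not called. Jag1 was called at 1.65 (adjusted p = 0.016) without the 3 libraries low on long transcripts, and Hes1 at 1.11 (adjusted p = 0.0295) with the trend on transcript length removed.

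After treatment the lines differed in 6 of 10 members, 5 higher and 1 lower in STHdhQ111 cells, against 24.5% of all genes tested (13.3% higher and 11.2% lower). The 5 include Heyl, which passed the filter only through STHdhQ111 libraries. Dll1 was 10.7-fold, Notch3 7.31-fold, Hey2 6.40-fold and Jag2 6.33-fold higher in treated STHdhQ111 than in treated STHdhQ7 cells, and Hey1 was 4.42-fold lower. The adjusted p was 2.44e-05 for Dll1, 0.000261 for Notch3, 0.000428 for Hey2, 3.36e-05 for Jag2 and 4.79e-05 for Hey1 by quasi-likelihood in edgeR, and no alternative removed any of these calls. For Heyl, the Q7-T libraries held 0, 4 and 15 estimated counts. With libraries under the floor set to 12 counts, Heyl was at least 23.3-fold higher in Q111-T. The edgeR test of its fitted log2 fold change of 5.41 (SE 1.09) gave an adjusted p of 0.00258. Jag2 was thus lower in STHdhQ111 than in STHdhQ7 cells before treatment, with the exceptions above, and higher after it. Notch1 (log2 fold change 0.61, adjusted p = 0.0903 in the edgeR test), Notch2 (-0.01), Jag1 (0.31) and Hes1 (-0.27) were not called.

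TPM is scaled by transcript length, and the members of a class were set against each other within each library, although the 3 libraries named above were still low on long transcripts. The receptor sum holds the 3 members and not Notch4, which had 2.91 to 3.33 TPM in Q111-C. In Q111-C, Notch2 made up 68.4% ± 1.04 (SD, n = 3) of the summed receptor TPM, Notch1 21.9% ± 0.402 and Notch3 9.79% ± 1.33. In Q111-T the shares were 32.2% ± 0.966 for Notch2, 41.7% ± 0.765 for Notch1 and 26.1% ± 0.414 for Notch3, so that Notch2 gave way to Notch1 as the largest of these 3. In STHdhQ7 cells, Notch2 was 54.3% ± 3.52 before and 44.7% to 55.6% after treatment, with overlapping libraries (exact permutation p = 0.4, two-sided), while Notch1 went from 37.1% ± 2.18 to 44.7% ± 6.19 and Notch3 from 8.57% ± 1.51 to 5.33% ± 0.991. The Notch3 shares did not overlap, and those of Notch1 met at 38.8%, with the highest Q7-T share (51.1%) in replicate 2, a library low on long transcripts. The replicates of a group agreed more closely in these shares than in TPM, where Notch2 ranged from 8.36 to 16.8 TPM over the Q111-T libraries.

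For the ligands, the share of Jag1 was 67.6% ± 3.57 before and 14.4% ± 6.48 after treatment of STHdhQ111 cells (SD, n = 3), while Jag2 went from 11.9% ± 3.12 to 43.0% ± 0.715 and Dll1 from 20.5% ± 1.92 to 42.6% ± 6.58. None of these shares overlapped between the groups. In STHdhQ7 cells, Jag1 was the largest ligand share before (70.2% ± 7.41) and after treatment (50.8% ± 6.57), also without overlap. The summed ligand TPM was 2.11 to 3.07 in Q111-C and 7.31 to 11.7 in Q111-T, but 2.72 to 5.45 in Q7-C and 0.841 to 2.51 in Q7-T. The RNA of these 3 ligands was thus higher in all treated than in all nontreated STHdhQ111 libraries, and lower in all treated than in all nontreated STHdhQ7 libraries. The sum leaves out the noncanonical ligand Dlk2, with 43.0 to 51.0 TPM in Q111-C and 24.3 to 33.3 TPM in Q111-T.

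The target genes were split by line. Hes1, with the shortest transcript, took 73.4% of the summed target TPM in Q7-C replicate 1 and 66.8% in Q7-T replicate 2, both low on long transcripts, against 53.0% and 58.6% in the other Q7-C and 43.3% and 49.0% in the other Q7-T libraries. Hey1 held 30.6% ± 8.1 of the summed target TPM in Q7-C and 3.63% ± 0.758 in Q111-C, whereas Hey2 and Heyl together with Hes1 filled the remainder in Q111-C (20.8% to 21.9%, 13.5% to 16.8% and 58.4% to 61.5%). The summed target TPM was 14 to 17.4 in Q7-C, 6.70 to 11.2 in Q7-T, 8.53 to 9 in Q111-C and 10.3 to 12 in Q111-T. The summed receptor TPM overlapped between Q7-C (12.7 to 28) and Q7-T (6.92 to 29.4) and was 19.3 to 26.6 in Q111-C and 26.9 to 51.3 in Q111-T, where the lowest treated library lay just above the highest nontreated one.

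**Figure D4:**
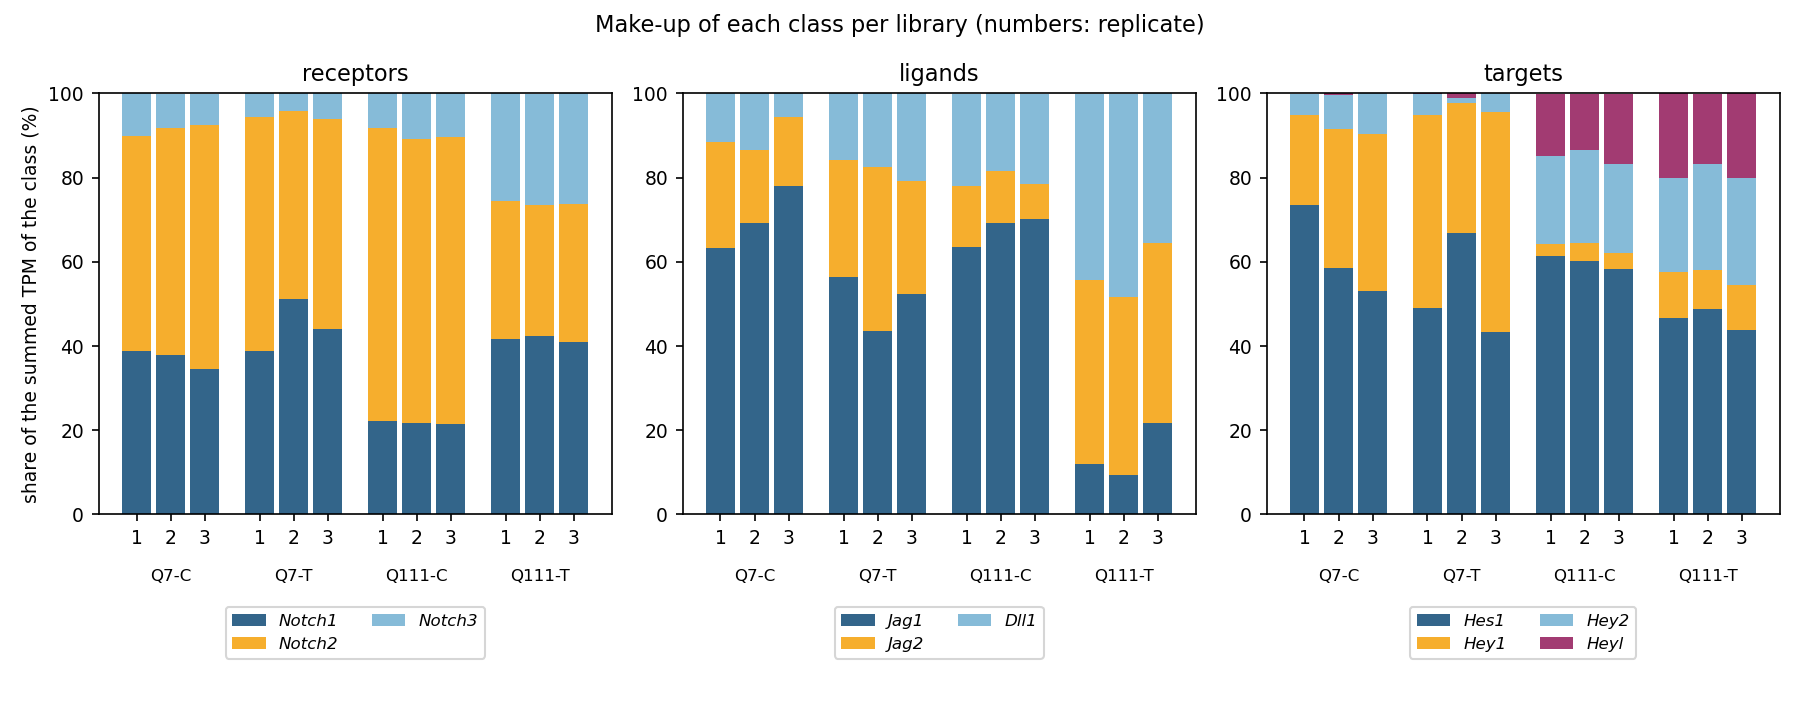
Share of each gene in the summed TPM of its class in each of the 12 libraries, in percent, with the replicate number under each bar. In Q111-T, Notch3 reached 26.1% of receptor TPM and Jag2 and Dll1 together most of the ligand TPM, and Heyl filled 13.5% to 20.0% of target TPM in the STHdhQ111 libraries against at most 1.05% in the STHdhQ7 libraries.

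In order of level, Notch2 had the highest mean in 3 groups (11.7 ± 4.92 TPM in Q7-C, 10.9 ± 6.92 in Q7-T and 15.9 ± 2.28 in Q111-C, SD, n = 3 each). In Q111-C it stood above Hes1 (5.26 ± 0.275 TPM) without overlap, while Hes1 and Notch1 (5.08 ± 0.754 TPM) did not differ beyond their spread. In both STHdhQ7 groups each leading member overlapped with its neighbour, from Notch2 down to Jag2 in Q7-C and from Notch2 down to Hey1 in Q7-T. In Q111-T, Notch1 (16.9 ± 5.06 TPM), Notch2 (13.2 ± 4.34) and Notch3 (10.6 ± 3.13) overlapped with their neighbours and stood clear of Hes1 (5.26 ± 0.634). Jag2 (4.03 ± 1.02) and Dll1 (3.96 ± 1.05) overlapped as well.

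Of 60 other genes of the pathway, sorted by role, 50 passed the filter. Calls numbered 6 in Q111-C vs. Q7-C (2 higher, 4 lower), 8 in Q111-T vs. Q7-T (2 higher, 6 lower), 1 in Q7-T vs. Q7-C (lower), 6 in Q111-T vs. Q111-C (2 higher, 4 lower) and 3 in the interaction. As shares of the genes tested these were 12%, 16%, 2.0%, 12% and 6.0%, beside 15.2%, 24.5%, 4.04%, 11.2% and 4.71% of all genes, and the median log2 fold changes lay between -0.10 and 0.03. Of 10 receptor cleavage genes only Psenen, a γ-secretase subunit, was called, at -1.48 in Q111-T vs. Q7-T (SE 0.518, adjusted p = 0.0422 in edgeR's test). Its highest library was Q7-T replicate 2 (116 TPM, against 52.2 and 55.1 in the other Q7-T and 28.8 to 52.0 in the Q111-T libraries). Without that library the value was -0.60 (adjusted p = 0.251), and with the trend on transcript length removed it was -0.74. The call was also lost without Q7-C replicate 2, Q111-T replicate 1 or 3, or any Q111-C library (-1.46 to -1.24, adjusted p between 0.0551 and 0.142).

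Of 8 tested genes of receptor inhibition and turnover, 3 were called in Q111-C vs. Q7-C and 2 in Q111-T vs. Q7-T, all lower in STHdhQ111 cells, beside 15.2% and 24.5% of all genes. Nrarp, itself a Notch target that dampens the signal, had 16.7, 17.6 and 21.1 TPM in Q7-C, 5.65, 10.2 and 10.9 in Q7-T, 0.368, 0.378 and 0.739 in Q111-C and 1.49, 2.10 and 2.25 in Q111-T. As for Hey1, the STHdhQ7 libraries were the high ones and treatment raised the STHdhQ111 libraries without reaching them. Unlike Hey1, Nrarp was lower in all Q7-T than in all Q7-C libraries. This log2 fold change of -0.92 (SE 0.244, adjusted p = 0.0549 in edgeR's test) was not called, but it enters the Nrarp interaction of 2.96. The log2 fold change of Nrarp was -5.53 in Q111-C vs. Q7-C (SE 0.298, adjusted p = 2.81e-07 by quasi-likelihood in edgeR) and 2.05 in Q111-T vs. Q111-C (SE 0.264, adjusted p = 0.000206). The latter call was lost in 1 of 26 alternatives, at 0.98 with limma on log2(TPM + 1). Dtx4, of the Deltex ubiquitin ligases, was lower in STHdhQ111 cells in both conditions (-2.34 and -3.10, adjusted p of 7.54e-06 and 1.07e-06 in the same test), with 3.51 to 3.91 TPM in Q111-C against 8.70 to 19.4 TPM in Q7-C.

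Fbxw7, the ubiquitin ligase subunit that marks the intracellular domain for degradation, had 8.12, 8.52 and 9.34 TPM in Q7-C, 3.95, 4.64 and 4.67 in Q111-C and 12.5, 12.6 and 13.3 in Q111-T. It was the lowest in nontreated and the highest in treated STHdhQ111 cells, with no overlap between these groups. The log2 fold change was 1.64 in Q111-T vs. Q111-C (SE 0.166, adjusted p = 3.26e-05 by quasi-likelihood in edgeR) and the interaction 1.84 (SE 0.231, adjusted p = 0.00107). Its call between the nontreated lines (-1.29) was lost with limma on log2(TPM) for each pseudocount (-0.96 to -0.83). Lfng, the Fringe enzyme that adds sugars to the receptors and shifts their choice of ligand, had 16.4, 20.8 and 22.9 TPM in Q7-C, 6.41, 13.7 and 15.6 in Q7-T, 7.13, 7.73 and 8.79 in Q111-C and 1.64, 2.21 and 2.29 in Q111-T. All STHdhQ111 libraries fell on treatment, with a log2 fold change of -1.85 (SE 0.176, adjusted p = 1.98e-05 in the edgeR test), and the interaction was -1.22 (SE 0.24, adjusted p = 0.0124).

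**Figure D5:**
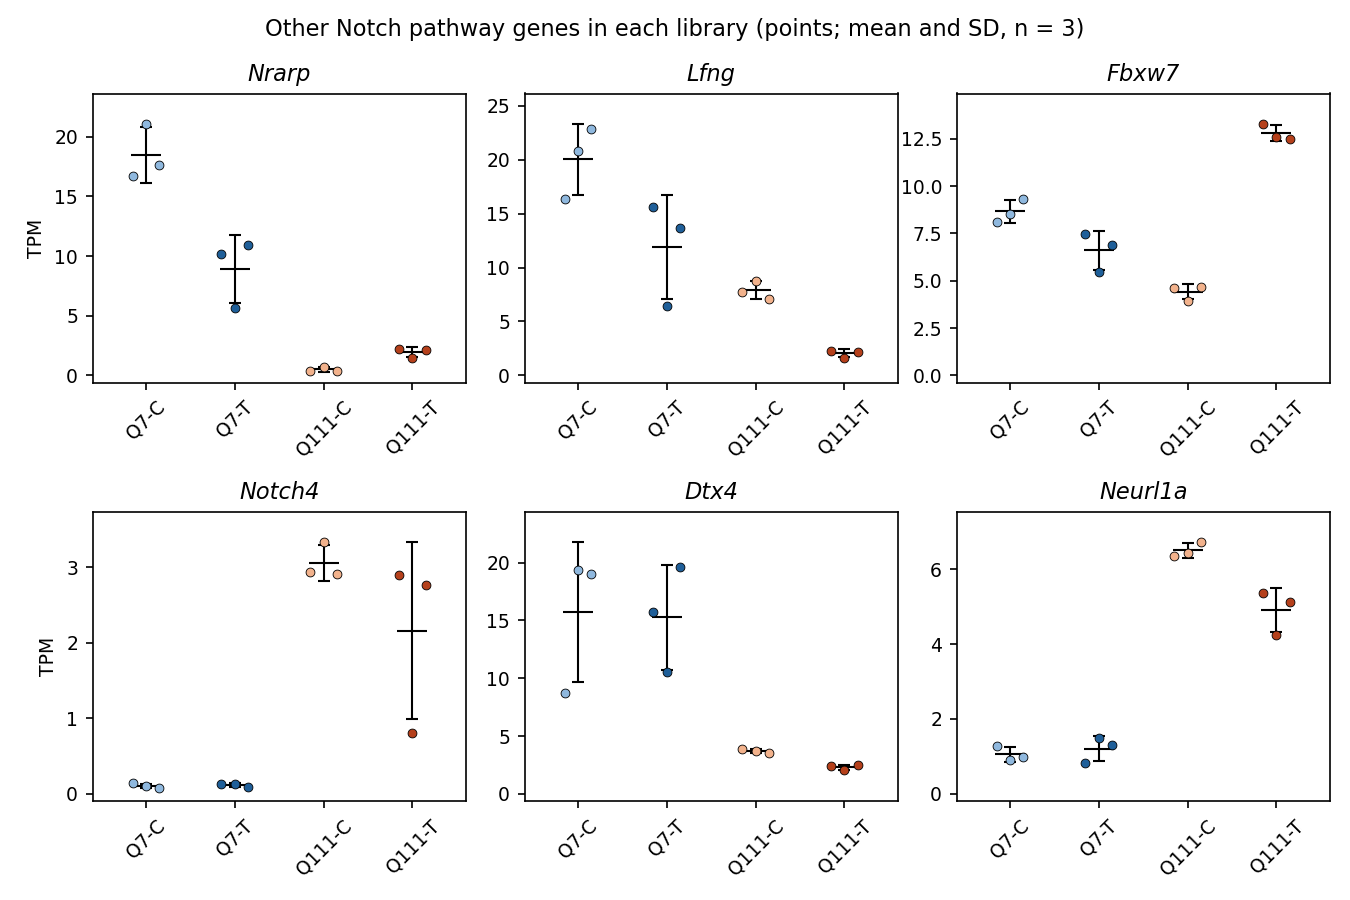
TPM of 6 further pathway genes in each library, with the mean and SD of the 3 libraries of each group as bars and a separate vertical axis for each gene. Nrarp and Dtx4 were high in STHdhQ7 cells, Notch4 and Neurl1a in STHdhQ111 cells, Fbxw7 was highest in Q111-T (12.5 to 13.3 TPM), and Lfng was lowest there (1.64 to 2.29 TPM).

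Among the other receptors and ligands, Notch4, the receptor best known from endothelium, had 2.91, 2.93 and 3.33 TPM in Q111-C and 0.0826, 0.102 and 0.137 TPM in Q7-C, a log2 fold change of 4.42 (SE 0.514, adjusted p = 7.96e-05 by quasi-likelihood in edgeR). It had 0.811, 2.77 and 2.90 TPM in Q111-T and at most 0.133 TPM in Q7-T, with replicate 2 as the low Q111-T library. Dlk2, a noncanonical ligand, had 24.3 to 51.0 TPM over all libraries and no call. Dll4, Dlk1 and Dner were below the filter, with at most 0.0713, 0.0429 and 0.281 TPM, and Dll3 was not analysed here. Of the ubiquitin ligases that act on ligands, Neurl1a was higher in STHdhQ111 cells in both conditions (2.25 and 1.51, adjusted p of 0.00092 and 0.00683 in the same test). Neurl1b was lower after treatment in both lines, at -1.30 in STHdhQ7 (adjusted p = 0.0175) and -1.24 in STHdhQ111 cells (adjusted p = 0.00883). In STHdhQ7 cells the call was lost in 4 alternatives, which were without Q7-C replicate 1 (-1.19, adjusted p = 0.0549), with only the libraries compared (-1.29, adjusted p = 0.106), with limma on log2(TPM + 0.1) (-1.49, adjusted p = 0.0582) and without the 3 libraries low on long transcripts (-0.98). In STHdhQ111 cells it was lost with limma on log2(TPM + 1) (-0.97).

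In the nuclear complex, Rbpj had 4.37, 4.77 and 4.87 TPM in Q111-C and 6, 8.20 and 9.18 TPM in Q111-T. These did not overlap, but the log2 fold change of 0.82 (SE 0.205, adjusted p = 0.0152 in the edgeR test) was under 2-fold. Maml3, a Mastermind coactivator, was lower in Q111-T than in Q111-C (-1.59, adjusted p = 0.00556) and than in Q7-T (-1.88, adjusted p = 0.00115). With limma on log2(TPM + 1) these were -0.66 (adjusted p = 0.059) and -0.56 (adjusted p = 0.0682), and the calls were lost in 3 and 2 alternatives. Kat2a, an acetyltransferase, was lower in Q111-T than in Q7-T (-1.05, adjusted p = 0.000484), but the call was lost in 6 alternatives, at -0.61 with limma on log2(TPM) for each pseudocount, -0.78 on quantile-normalized TPM, -0.88 without Q7-T replicate 2 and -0.83 without the 3 libraries low on long transcripts. Of 11 corepressor genes, only Tle2 was called, with 10.8, 11.4 and 11.5 TPM in Q111-C and 2.56, 3.77 and 4.52 TPM in Q111-T (-1.54, adjusted p = 0.000104 in edgeR's test). Of the other Hes genes, Hes6 and Hes7 passed the filter and gave no call, Hes2 had at most 0.354 TPM, and Hes3 and Hes5 were not analysed here. A gap of at least 5 TPM between group means without any call was found for 22 pathway genes, among them Dlk2 and Hes6, the cleavage genes Adam10, Aph1a, Furin and Ncstn, the glycosylation genes Pofut1, Poglut1 and Rfng, Mib2, Dtx3 and Itch, the nuclear genes Ep300, Kat2b, Maml1 and Snw1, and the corepressor genes Cir1, Ctbp1, Hdac1 and Hdac2. The widest gap (108 TPM) was that of the histone deacetylase Hdac1 between Q7-T, with 39.8, 71.3 and 74.6 TPM, and Q111-C, with 166 to 175 TPM. In Q7-C it had 61.3, 78.0 and 82.6 TPM. Its log2 fold change of 0.89 in Q111-C vs. Q7-C (SE 0.118, adjusted p = 0.000202 in edgeR's test) was under 2-fold.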

How the data were processed

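RNA-seq was measured in 12 libraries of 2 cell lines, with and without IFNγ/LPS. Per the labels and the study's methods, the authors prepared stranded poly(A) libraries, sequenced them from both ends, trimmed reads with cutadapt, mapped them with HISAT2 to GRCm38 and estimated expression with StringTie. They deposited TPM values per gene, which sum to 688352 to 719623 per library, and unnormalized estimated counts as whole numbers. StringTie divides reads over overlapping transcripts, so that levels depend on the merged transcript models.

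The estimated counts were rounded and tested in edgeR 4.0.16 (R 4.3.3) for the 16127 genes that reached 0.5 TPM in 3 or more libraries (TMM factors, a mean per group over all 12 libraries, quasi-likelihood test, Benjamini-Hochberg adjustment). Calls needed an adjusted p under 0.05 and a log2 fold change of at least 1, and standard errors came from the fold change and the F statistic. Single values were compared by two-sided exact permutation tests. The procedure was tested on simulated data. Replicates differed by a chi-square of at least 18.8 per degree of freedom over genes, so that no library appeared to be deposited more than once. Counting floors cover counting error only, since the reads carry no molecular identifiers.

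All members are described, and other pathway genes were named where called, where at least 5 TPM separated group means, or to say that they were not detected, with Rbpj added after its values were seen. The members, lists and motifs were chosen with earlier results of these data known. Alternatives covered the scaling factors, DESeq2 1.42.0, limma 3.58.1 on log2(TPM) with pseudocounts of 0.5, 0.1 and 1, filters, counts divided by 4, the replicate number as a block, fewer libraries, and, chosen after seeing the data, the trend on transcript length removed and 3 libraries left out. Promoters came from RefSeq (GRCm38.p6). A further motif of the promoter search and some pathway genes are not reported here by name.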

Additional observations from a re-analysis of the deposited data

Results flagged for a closer look

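The response to IFNγ/LPS differed between the STHdhQ111 and STHdhQ7 lines in the interaction test of edgeR for 6 of the members and 3 other pathway genes. As differences in log2 fold change (STHdhQ111 minus STHdhQ7), these were 4.36 for Jag2, 3.37 for Dll1, 2.76 for Notch3, 2.30 for Hey2, 2.03 for Hey1 and 1.5 for Notch1. Among the other pathway genes they were 2.96 for Nrarp, 1.84 for Fbxw7 and -1.22 for Lfng. The values of Jag2, Dll1, Nrarp and Fbxw7 stayed past the threshold under all 25 alternatives, and that of Lfng under 22.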

How the results depend on the processing

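Of 1290 fold changes of the members under up to 26 alternatives, 1162 kept their direction and side of the threshold, 66 lost and 11 gained a call, and 51 changed sign. All 51 belonged to values that were not called. With limma on log2(TPM + 0.5) or log2(TPM + 1), 2 members were called in Q111-C vs. Q7-C in place of 4. In Q7-T vs. Q7-C the 2 calls became 0 with limma on log2(TPM + 0.5), with limma on log2(TPM + 1) and with the replicate block or only the libraries compared, and 1 (Jag1) with quantile-normalized TPM and without the filter. With limma on log2(TPM + 0.1) both were lost and 1 other, Hes1 (-1.01, adjusted p = 0.0234), was gained. With 1 library left out they ranged from 0 to 2. Over all genes, calls in Q7-T vs. Q7-C went from 651 to 414 with limma on log2(TPM + 1) and to 394 with only the libraries compared, and in the interaction from 760 to 1303 with DESeq2 and to 1588 without the 3 libraries low on long transcripts. Interaction calls among the members went from 6 to 2 with limma on log2(TPM + 0.1). The cause was not tested.

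The replicate numbers did not pair the libraries, since correlations of the deviations of same-numbered libraries ran from -0.416 to 0.303. With the replicate block, 2315 and 3774 genes were called between the lines (nontreated and treated), 570 and 1693 for the response of STHdhQ7 and STHdhQ111 cells, and 626 in the interaction, and interaction calls of Notch1 and Hey2 were lost beside those of Jag1 and Hey2 in STHdhQ7 cells.

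The sign changes were as follows. For Notch2 in Q111-T vs. Q7-T (main value -0.01), the value was 0.488, 0.524 and 0.45 with limma on TPM (pseudocounts 0.5, 0.1 and 1), 0.001 with RLE factors, 0.002 with DESeq2, 0.01 with a minimum of 1 TPM, 0.036 with the replicate block, 0.008 with only the libraries compared, and between -0.362 and 0.297 with 1 library left out. In Q7-T vs. Q7-C, Notch2 was 0.004 with only the libraries compared, 0.188 with the length trend removed, 0.13 without the 3 libraries, and between -0.31 and 0.356 with 1 left out. Notch2 was -0.017 in Q111-C vs. Q7-C and 0.008 in Q111-T vs. Q111-C without the 3 libraries, and with 1 left out between -0.013 and 0.429 in Q111-C vs. Q7-C and between -0.549 and 0.119 in the interaction. Notch3 in Q111-C vs. Q7-C lay between -0.025 and 0.337 with 1 left out. Dll1 there was -0.075 with quantile-normalized TPM, -0.004 with the length trend removed, and between -0.147 and 0.372 with 1 left out. Hes1 in Q111-T vs. Q7-T was 0.145, 0.157 and 0.133 with limma on TPM and 0.005 with the length trend removed. In Q111-T vs. Q111-C, Hes1 was -0.005, -0.005 and -0.004 with limma on TPM, -0.041 with quantile-normalized TPM, -0.025 without the 3 libraries, and between -0.067 and 0.222 with 1 left out. Hey1 in Q7-T vs. Q7-C was 0.054 without the 3 libraries and between -0.206 and 0.086 with 1 left out. Heyl in Q7-T vs. Q7-C was -0.896 without the 3 libraries and between -1.0 and 1.92 with 1 left out, and in the interaction 0.51, 0.558 and 0.423 with limma on TPM, 0.419 with quantile-normalized TPM, 1.69 without the 3 libraries, and between -1.15 and 1.79 with 1 left out.

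Of the 3 libraries in each STHdhQ7 group and in Q111-T, 1 was low for long transcripts. Heyl in STHdhQ7 cells, Hey1 and Jag2 in Q111-C and Dll1 outside Q111-T rested on fewer than 100 estimated counts per library.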

Other observations

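Across the 12 libraries, the genes outside the set whose log2(TPM + 0.5) followed a member most closely were taken by Pearson's r, as a description over libraries that share lines, treatment and the deviation of long transcripts. For Notch1 these were Csf1 (r = 0.981), a macrophage growth factor, and Txnrd1 (0.975), a thioredoxin reductase. Notch3 was matched by Gm41442 (0.989) and Fam214b (0.984). Jag2 was matched by Ppp1r15a (0.977), a stress-induced phosphatase subunit, and Slc4a11 (0.977), and Dll1 by Ppm1d (0.984), a phosphatase of the p53 response, and Dffb (0.983), an apoptotic nuclease.

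Notch2, which gave no call, was matched by Rad54l2 (0.99) and Lsm14b (0.99). Jag1 and Hes1 had weaker matches, with Sema5a (0.947) and Herc3 (0.932) for Jag1 and Odf3l1 (0.897) and Nsmce3 (0.887) for Hes1. Hey1 was matched by Tmem45a (0.984) and Slc22a23 (0.984), Hey2 by Mapre3 (0.989) and Aldh5a1 (0.981), and Heyl by Cgas (0.997), the cytosolic DNA sensor, and Selp (0.996), an adhesion receptor.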
